A study of Arabidopsis thaliana with 21 samples.

Results

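The GH3 genes described here are the 8 Arabidopsis thaliana loci named GH3.1, GH3.2, GH3.3, GH3.4, GH3.5, GH3.6, GH3.9 and GH3.17, taken by locus from a table of 32548 genes. They were followed through 7 genotypes, each with 3 RNA sequencing libraries of 30-day-old plants: gcn5, ada2b-c, ada2a and spc, their combinations ada2b-cada2a and ada2b-cspc, and the wild type Col-0. All plants spent 12 days on MS medium plates before soil, at 22 °C under a day of 16 h light and 8 h dark, and no treatment is labelled. GCN5 is a histone acetyltransferase, and ADA2A and ADA2B are adaptor proteins that bind it. What kind of mutation each line carries, and how many plants stand behind a library, is not given. The labels do not state that replicate libraries are separate plants, and p-values then measure only the spread between these samples.

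GH3 proteins of this group join the auxin indole-3-acetic acid to amino acids. Conjugation to aspartate or glutamate sends auxin towards breakdown, while other conjugates can be split again by hydrolases. Many GH3 genes are themselves early auxin response genes: auxin bound by the TIR1 and AFB receptors leads to loss of Aux/IAA repressors, which frees auxin response factors to act at promoter elements, so that a rise in auxin is followed by its own inactivation. In Arabidopsis, GH3.5 also acts on salicylic acid, GH3.6 was found through the short-hypocotyl line DFL1, GH3.17 makes the glutamate conjugate, and GH3.9 is known for a role in root growth.

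The stretches of 250 bases before the annotated starts are shown for 3 genes that stood far higher in the ada2b-c genotypes and for GH3.6, the gene nearest to GH3.5 in coding sequence. They are given 5′ to 3′ on the strand of the gene, from the RefSeq annotation of TAIR10.1, with the auxin response element TGTCTC in capitals.

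GH3.2, chr4:17579368-17579617, plus strand: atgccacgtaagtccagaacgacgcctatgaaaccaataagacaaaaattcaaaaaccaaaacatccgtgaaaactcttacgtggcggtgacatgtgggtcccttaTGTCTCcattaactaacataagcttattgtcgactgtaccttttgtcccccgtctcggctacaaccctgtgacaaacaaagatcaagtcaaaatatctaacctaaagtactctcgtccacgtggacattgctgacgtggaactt

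GH3.3, chr2:9866563-9866812, minus strand: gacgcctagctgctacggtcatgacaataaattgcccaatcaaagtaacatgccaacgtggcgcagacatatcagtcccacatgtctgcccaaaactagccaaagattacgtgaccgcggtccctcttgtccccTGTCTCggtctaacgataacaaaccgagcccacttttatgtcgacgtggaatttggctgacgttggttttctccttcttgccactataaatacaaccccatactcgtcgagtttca

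GH3.5, chr4:13653329-13653578, plus strand: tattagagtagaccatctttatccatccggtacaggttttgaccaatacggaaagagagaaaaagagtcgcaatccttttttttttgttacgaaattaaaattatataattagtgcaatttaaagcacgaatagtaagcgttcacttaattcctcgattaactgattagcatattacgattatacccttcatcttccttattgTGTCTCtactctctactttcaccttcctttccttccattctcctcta

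GH3.6, chr5:22133689-22133938, minus strand: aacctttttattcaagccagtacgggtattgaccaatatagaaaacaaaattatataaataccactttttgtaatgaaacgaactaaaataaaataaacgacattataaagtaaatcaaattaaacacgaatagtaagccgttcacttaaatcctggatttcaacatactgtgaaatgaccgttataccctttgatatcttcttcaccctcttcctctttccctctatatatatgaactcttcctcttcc

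TGTCTC was searched on both strands. Its first base lay 144 bases before the start of GH3.2, 116 before that of GH3.3 and 47 before that of GH3.5, each time on the strand of the gene. The element occurs in the 250 bases before the start of 10.95% of 27443 protein-coding genes, and in 3 of the 8 GH3 windows. The windows of GH3.1, GH3.4, GH3.6, GH3.9 and GH3.17 did not hold these letters, while GH3.1 had them 32 bases into its transcript. In 1000 bases before the start TGTCTC was present in 6 of the 8 genes, all but GH3.6 and GH3.17, and in 39.6% of all. The related letters TGTCGG occurred in none of the 8 windows of 250 bases, against 4.161% of all genes, and no match of it overlapped with TGTCTC. A match is a description of the sequence only.

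Expression is given as the adjusted signal that the authors deposited, which is not a read count. Depth is unknown, and intervals for counting error could not be computed. Column totals ran from 27411448 to 58700421. A gene was tested if its mean over the 21 libraries reached 1, which held for 23290 genes, among them 7 of the 8 GH3 genes. Changes are log2 differences ± SE of log2(value + 1) in a limma fit of all genotypes, which understates changes of low genes. A change passed at a Benjamini and Hochberg adjusted p under 0.05 over all genes tested. Values are means ± SD over 3 libraries.

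Several measurements of the libraries bear on the values below. Deviations from the gene means followed transcript length, with slopes per doubling of length between 0.687 and 1.06 in the libraries of ada2b-c, ada2b-cada2a and ada2b-cspc, and between -1.49 and 0.205 in all others. Changes were therefore also computed after subtracting each library's trend over length and GC content, below called the length correction, and with the slope as a covariate. Because the slope nearly separates the ada2b-c genotypes from the rest, the length trend and a change in these genotypes cannot be fully told apart. With the covariate a change can stop passing without being smaller, as GH3.17 did in ada2b-c, at 1.02 as deposited and 1.32 with the covariate. Rubisco and light-harvesting genes, read as leaf markers, were abundant in every genotype, and root markers were low in all, summing to between 17.2 and 163. The tissue is labelled seedlings, yet 6 floral identity genes summed to between 826 and 1075 in Col-0. Replicate 3 of gcn5 and of Col-0 had the lowest summed GH3 signal of its genotype. GCN5 stood at 275 ± 14.9 in gcn5 and 372 ± 51.0 in Col-0, and ADA2B at 583 ± 27.4 in ada2b-c and 494 ± 213 in Col-0, so transcript levels did not show loss of either. ADA2A stood at 32.0 ± 22.1 in ada2a, 3.48 ± 3.36 in ada2b-cada2a and 66.9 ± 21.3 in Col-0. Replicate 3 of ada2a, at 57.4, lay within the Col-0 range of 42.3 to 80.5. In the other mutants ADA2A stood at 816 ± 34.2 in ada2b-c, 579 ± 78.7 in ada2b-cspc, 133 ± 63.5 in gcn5 and 43.1 ± 8.59 in spc.

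GH3 signal was far higher in the 3 genotypes with the ada2b-c mutation. Divided by transcript length and summed over the 8 genes, the signal per kb was 3108 ± 20.3 in ada2b-c, 3650 ± 299 in ada2b-cspc and 2792 ± 457 in ada2b-cada2a, and 817 ± 255 in gcn5, 434 ± 71.7 in spc, 555 ± 176 in ada2a and 454 ± 79.9 in Col-0. The sum in ada2b-c was 6.85 times that in Col-0, and in ada2b-cspc 8.04 times. In RNA from many cells together, fewer cells of a type and less RNA per cell cannot be told apart, and nor can their opposites.

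The make-up of the sum, likewise of the values as deposited and not corrected for the length trend, differed as well. GH3.6 made up 12.8% ± 0.64 of the summed signal per kb in ada2b-c, against 47.5% ± 2.76 in Col-0. GH3.5 made up 46.3% ± 1.36 in ada2b-c and 26.4% ± 1.82 in Col-0, and GH3.3 30.9% ± 1.84 in ada2b-c and 7.35% ± 1.62 in Col-0. In gcn5 the share of GH3.6, 45.8% ± 2.95, lay close to that in Col-0, and the share of GH3.3 was 15.3% ± 2.26. Thus GH3.6 was the largest contributor in gcn5, ada2a, spc and Col-0, and GH3.5 in the 3 genotypes with ada2b-c.

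**Figure D1:**
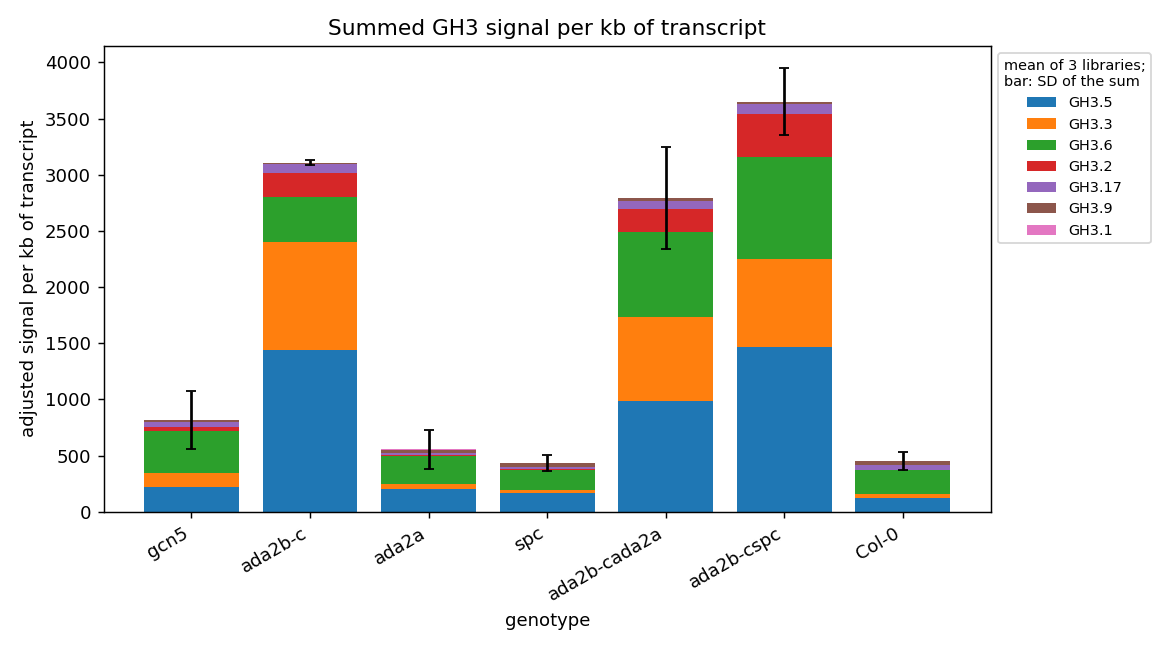
Adjusted signal as deposited, per kb of transcript (vertical axis), summed over the GH3 genes in each genotype (horizontal axis) and not corrected for the length trend. Segments are means of 3 libraries for each gene and bars are the SD of the sum, which reached 3108 in ada2b-c, 3650 in ada2b-cspc and 2792 in ada2b-cada2a, against 454 in Col-0.

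The number of GH3 genes that passed is read against the share of all genes that passed. In gcn5 4 of the 7 tested rose and 1 fell, while of all tested genes 15.6% rose and 18.7% fell. In ada2b-c 5 rose and 1 fell, where 32.4% of all genes rose and 33.6% fell. In ada2a 1 rose and 1 fell, where 19.8% rose and 19.9% fell, and in spc 1 fell and none rose, where 21.7% rose and 25.7% fell. In ada2b-cada2a 5 rose and none fell, where 30.4% rose and 32.1% fell, and in ada2b-cspc also 5 rose and none fell, where 31.4% rose and 33.3% fell. As deposited, the counts in ada2a and spc lie near the background, and those of higher genes in gcn5 and the 3 ada2b-c genotypes lie above it. The length correction altered these calls. In ada2b-c GH3.6 (0.02) and GH3.17 (0.21) then did not pass, and GH3.1 passed as a fall (-1.99). GH3.9 then also passed as a fall in ada2b-cada2a (-2.33) and ada2b-cspc (-2.46).

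The median log2 change of the 7 genes was 1.02 in ada2b-c, 1.83 in ada2b-cada2a, 2.08 in ada2b-cspc, 0.75 in gcn5, -0.02 in spc and 0.18 in ada2a. Over all genes tested the medians lay between -0.06 and 0.00. These 6 comparisons share the Col-0 libraries, and their medians are of the values as deposited. After the length correction GH3.2, GH3.3 and GH3.5 stood at 5.33, 4.38 and 2.73 in ada2b-c. GH3.17 and GH3.6 then stood at 0.21 and 0.02, and GH3.1 and GH3.9 at -1.99 and -3.11. The middle one of the 7, GH3.17, lay near the corrected all-gene median of 0.18.

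**Figure D2:**
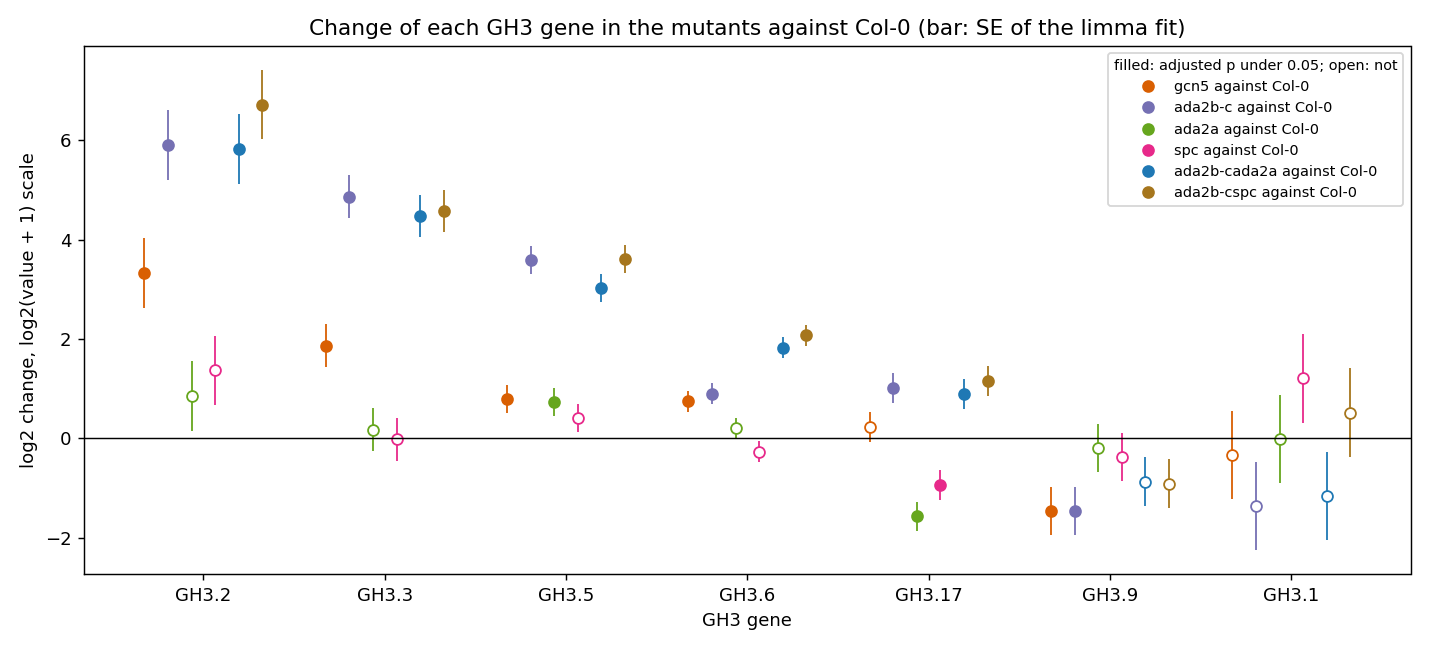
Log2 change ± SE (vertical axis) of each tested GH3 gene (horizontal axis) in 6 mutants against Col-0, filled where the adjusted p was under 0.05. In the 3 genotypes with ada2b-c the changes of GH3.2, GH3.3 and GH3.5 run from 3.03 to 6.72, and GH3.9 lies below 0 in all 6 mutants.

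GH3.2 (AT4G37390, chr4:17579618-17582022 in TAIR10.1, plus strand, 3 exons) showed the largest changes of the family. Its signal in replicates 1 to 3 was 503, 480 and 449 in ada2b-c, 409, 530 and 423 in ada2b-cada2a, 934, 766 and 820 in ada2b-cspc, and 27.5, 13.9 and 0.184 in Col-0. Every library of these mutants lay above all Col-0 libraries, and those of ada2b-cspc above all others. GH3.2 rose by 5.91 ± 0.70 in ada2b-c (adjusted p = 3.7e-07), by 5.83 ± 0.70 in ada2b-cada2a (adjusted p = 6.53e-07) and by 6.72 ± 0.70 in ada2b-cspc (adjusted p = 8.61e-08). The size rests in part on Col-0 replicate 3, which was close to 0: without it the rise in ada2b-c was 4.54, and in ada2b-cspc 5.35. With the slope covariate it was 3.69 in ada2b-c.

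In gcn5, GH3.2 signal was 94.2, 117 and 44.5, above each of the Col-0 values 27.5, 13.9 and 0.184. The rise was 3.33 ± 0.70 (adjusted p = 0.000954), and 1.96 without Col-0 replicate 3 (adjusted p = 0.000756). It did not pass in a fit of gcn5 and Col-0 only (adjusted p = 0.107). GH3.2 averaged 13.7 ± 4.14 in ada2a, 20.0 ± 5.0 in spc and 13.9 ± 13.7 in Col-0, and neither difference of the log2 values passed (0.85 in ada2a, adjusted p = 0.349, and 1.37 in spc, adjusted p = 0.113). The difference in spc was 1.90 after the length correction and passed (adjusted p = 0.0225), as it did without Col-0 replicate 1 (2.29, adjusted p = 0.0151), but it was 0.00 without Col-0 replicate 3.

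GH3.3 (AT2G23170, chr2:9863855-9866562, minus strand, 3 exons) had nearly as wide a range. Its signal was 2033, 1927 and 2149 in ada2b-c, 1346, 1970 and 1432 in ada2b-cada2a, 1854, 1632 and 1522 in ada2b-cspc, and 80.1, 93.1 and 43.4 in Col-0. Every library with ada2b-c lay far above all 3 of Col-0. The log2 change was 4.87 ± 0.43 in ada2b-c (adjusted p = 6.24e-09), 4.48 ± 0.43 in ada2b-cada2a (adjusted p = 3.13e-08) and 4.58 ± 0.43 in ada2b-cspc (adjusted p = 1.98e-08). In ada2b-c it was 4.38 after the length correction and 3.56 with the covariate.

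In gcn5 the signal of GH3.3 was 318, 354 and 144, above the 80.1, 93.1 and 43.4 of Col-0 in every library, with the lowest value of each genotype in replicate 3. The rise of 1.87 ± 0.43 passed (adjusted p = 0.00199), with a range of 1.54 to 2.27 when a library was left out. In ada2a, GH3.3 was 48.2, 200 and 48.8, so that replicate 2 alone lay above Col-0, and in spc it averaged 69.0 ± 17.6, against 72.2 ± 25.8 in Col-0. These differences, 0.18 in ada2a and -0.02 in spc, did not pass.

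GH3.5 (AT4G27260, chr4:13653579-13656285, plus strand, 3 exons), whose enzyme also takes salicylic acid, had the highest signal per kb of the 8 genes in the ada2b-c genotypes. It stood at 3326, 3528 and 3312 in ada2b-c, 1961, 2858 and 2140 in ada2b-cada2a, 3665, 3391 and 3289 in ada2b-cspc, and 336, 309 and 210 in Col-0. The groups were far apart, and the libraries of ada2b-cada2a all lay below those of ada2b-c. The rises were 3.6 ± 0.28 in ada2b-c (adjusted p = 9.1e-10), 3.03 ± 0.28 in ada2b-cada2a (adjusted p = 1.63e-08) and 3.62 ± 0.28 in ada2b-cspc (adjusted p = 1.16e-09). The rise in ada2b-c was 2.73 after the length correction and 1.94 with the covariate.

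GH3.5 differed less in the other mutants. In gcn5 it was 644, 616 and 292, against 336, 309 and 210 in Col-0, and the third gcn5 library lay within the Col-0 range. The rise of 0.80 ± 0.28 (adjusted p = 0.0298) did not pass without gcn5 replicate 1 (0.60, adjusted p = 0.139), gcn5 replicate 2 (0.63, adjusted p = 0.141) or Col-0 replicate 3 (0.59, adjusted p = 0.152), nor with no filter on low values (adjusted p = 0.0635) or in a fit of these groups only (adjusted p = 0.18). In ada2a it was 417, 644 and 371, above all Col-0 libraries. That rise of 0.73 ± 0.28 (adjusted p = 0.042) was lost without ada2a replicate 2 (0.49), Col-0 replicate 2 (0.80, adjusted p = 0.0614) or Col-0 replicate 3 (0.52), with equal column totals (0.35), with no filter (adjusted p = 0.0814) and in a fit of the groups only (adjusted p = 0.114). In spc it averaged 381 ± 97.9, against 285 ± 66.7 in Col-0, a difference of 0.42 that did not pass and stood at 1.04 after the length correction, where it passed (adjusted p = 6.52e-05).

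**Figure D3:**
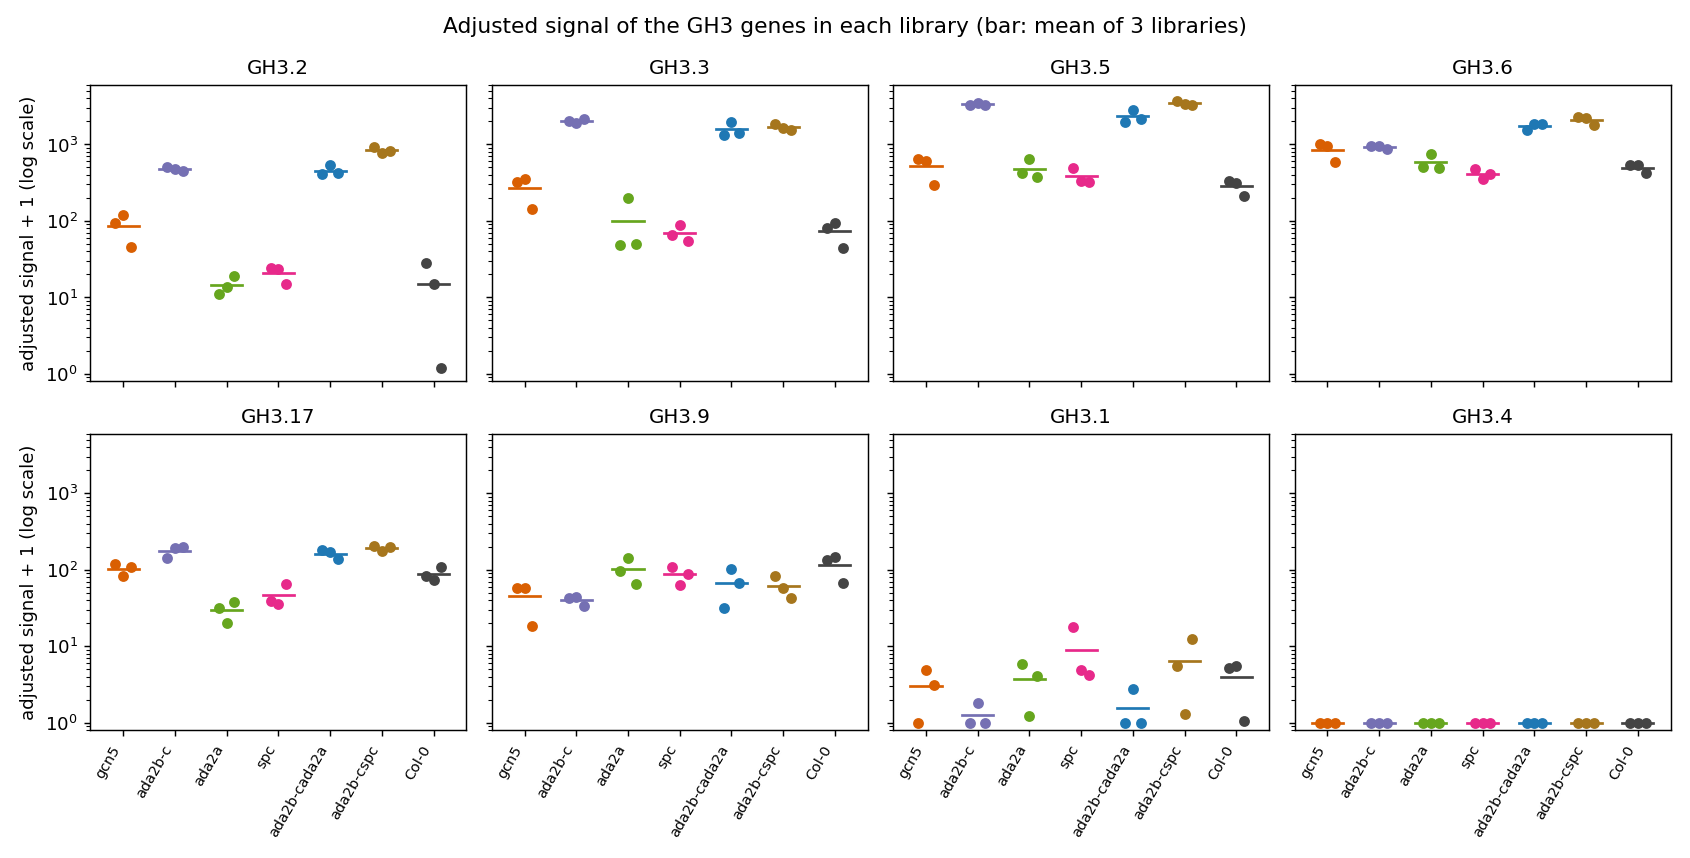
Adjusted signal plus 1 on a log axis for each GH3 gene, with a point per library and a bar at the mean of 3 libraries, for 6 mutants and Col-0. GH3.2, GH3.3 and GH3.5 separate the 3 ada2b-c genotypes from the rest, GH3.6 is highest in the double mutants, and GH3.4 is at 0 throughout.

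GH3.6 (AT5G54510, chr5:22130964-22133688, minus strand, 3 exons) behaved differently from its close relative GH3.5. It stood at 1009, 967 and 596 in gcn5, 963, 940 and 875 in ada2b-c, 1566, 1872 and 1847 in ada2b-cada2a, 2300, 2195 and 1812 in ada2b-cspc, and 535, 530 and 425 in Col-0. The gcn5 and ada2b-c libraries lay in the same range, above Col-0, and those of the double mutants lay above both. The rise was 0.75 ± 0.21 in gcn5 (adjusted p = 0.00844) and 0.90 ± 0.21 in ada2b-c (adjusted p = 0.000822). It was 1.83 ± 0.21 in ada2b-cada2a (adjusted p = 3.63e-07) and 2.08 ± 0.21 in ada2b-cspc (adjusted p = 5.55e-08).

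Of these calls, that in ada2b-c depended on the length trend: the change was -0.10 with the covariate (adjusted p = 0.813) and 0.02 after the length correction (adjusted p = 0.926). The rises in the double mutants passed under both adjustments but were smaller, at 1.03 in ada2b-cada2a and 1.24 in ada2b-cspc after the length correction, and at 0.98 and 1.18 with the covariate. The call in gcn5 did not pass in a fit of these groups only (adjusted p = 0.0795). GH3.6 averaged 583 ± 153 in ada2a and 413 ± 59.0 in spc, against 497 ± 61.9 in Col-0, and neither difference passed (0.21 and -0.27). After the length correction both passed as rises, at 0.74 in ada2a and 0.44 in spc, and with equal column totals the difference in ada2a was -0.17.

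GH3.17 (AT1G28130, chr1:9825169-9828118, plus strand, 4 exons), which makes the glutamate conjugate, fell in 2 mutants and rose in 3. It stood at 31.2, 19.3 and 37.1 in ada2a and at 38.6, 35.0 and 64.0 in spc, against 81.2, 71.7 and 108 in Col-0. No library of either mutant reached the lowest of Col-0. The change was -1.57 ± 0.30 in ada2a (adjusted p = 0.00104) and -0.94 ± 0.30 in spc (adjusted p = 0.016). The fall in ada2a ran from -1.76 to -1.31 with a library left out, and was -0.97 after the length correction (adjusted p = 0.0358). That in spc was lost without spc replicate 2 or Col-0 replicate 3 (-0.77 each, adjusted p = 0.0788 and 0.0639), in a fit of the groups only (adjusted p = 0.0948), with the covariate (-1.09, adjusted p = 0.0697) and after the length correction (-0.22, adjusted p = 0.645).

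In the ada2b-c genotypes GH3.17 was 140, 192 and 200 in ada2b-c, 181, 169 and 136 in ada2b-cada2a, 205, 176 and 198 in ada2b-cspc, and 81.2, 71.7 and 108 in Col-0. These libraries all lay above Col-0. The rises were 1.02 ± 0.30 (adjusted p = 0.00536), 0.90 ± 0.30 (adjusted p = 0.0138) and 1.16 ± 0.30 (adjusted p = 0.00216), in the order of the mutants just given. None passed after the length correction (0.21, 0.17 and 0.41), and with the covariate those in ada2b-c (1.32, adjusted p = 0.0798) and ada2b-cada2a (1.15, adjusted p = 0.0862) did not. The rise in ada2b-cada2a also failed without its replicate 1 (0.81, adjusted p = 0.0513) or Col-0 replicate 2 (0.77, adjusted p = 0.0592). In gcn5 it averaged 102 ± 18.7, against 87.1 ± 19.1 in Col-0, which did not pass (0.23, adjusted p = 0.589).

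GH3.9 (AT2G47750, chr2:19560127-19563960, minus strand, 4 exons) was the only tested member below Col-0 in gcn5 and ada2b-c by a change that passed as deposited. It stood at 57.6, 57.8 and 17.5 in gcn5 and at 41.3, 43.7 and 32.7 in ada2b-c, against 133, 148 and 65.6 in Col-0. Neither mutant overlapped with Col-0, where replicate 3 was the lowest. The change was -1.46 ± 0.49 in each, with an adjusted p of 0.0242 in gcn5 and 0.012 in ada2b-c.

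Both falls of GH3.9 were sensitive to the libraries and to scaling. That in gcn5 did not pass without gcn5 replicate 3 (-0.91, adjusted p = 0.137), Col-0 replicate 1 (-1.32, adjusted p = 0.079) or Col-0 replicate 2 (-1.24, adjusted p = 0.0971), with equal column totals (-1.23, adjusted p = 0.0695), with no filter (adjusted p = 0.0523) or in a fit of the groups only (adjusted p = 0.132). That in ada2b-c was lost when Col-0 replicate 2 was left out (-1.24, adjusted p = 0.056) or with equal column totals (-0.93, adjusted p = 0.116), and was larger after the length correction (-3.11) and with the covariate (-4.08). GH3.9 averaged 59.8 ± 20.7 in ada2b-cspc and 65.9 ± 34.9 in ada2b-cada2a, against 116 ± 44.1 in Col-0, differences that did not pass as deposited but did after the length correction (-2.46 in ada2b-cspc and -2.33 in ada2b-cada2a). In ada2a it averaged 101 ± 39.2 and in spc 86.4 ± 22.7, overlapping with Col-0, and neither difference passed (-0.19 in ada2a and -0.37 in spc). With the length correction these stood above 0, at 0.41 in ada2a and 0.47 in spc, and did not pass. The GH3.9 locus overlaps the noncoding gene AT2G09955 on the other strand, and because strandedness is not given their reads cannot be told apart.

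GH3.1 (AT2G14960, chr2:6451319-6453797, minus strand, 3 exons) was barely present, with means from 0.275 ± 0.476 in ada2b-c to 8.08 ± 7.75 in spc, and 2.94 ± 2.5 in Col-0. Every mutant overlapped with Col-0, and no comparison among the 11 passed for it as deposited. After the length correction its fall in ada2b-c passed (-1.99, adjusted p = 0.0461), and with the covariate it did not (-3.04, adjusted p = 0.181). GH3.4 (AT1G59500, chr1:21854493-21856614, minus strand, 3 exons) was listed at 0 in all 21 libraries and was not tested. GH3.4 and GH3.2 share 90.9% of their aligned coding bases, the closest pair of the 8. Their longest identical run was 65 bp, against reads of 150 bp, and how reads that match several genes were counted is not given. GH3.5 and GH3.6 share 84.1%, GH3.2 and GH3.3 81.4%, and the remaining pairs between 59.9% and 79.1%.

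**Figure D4:**
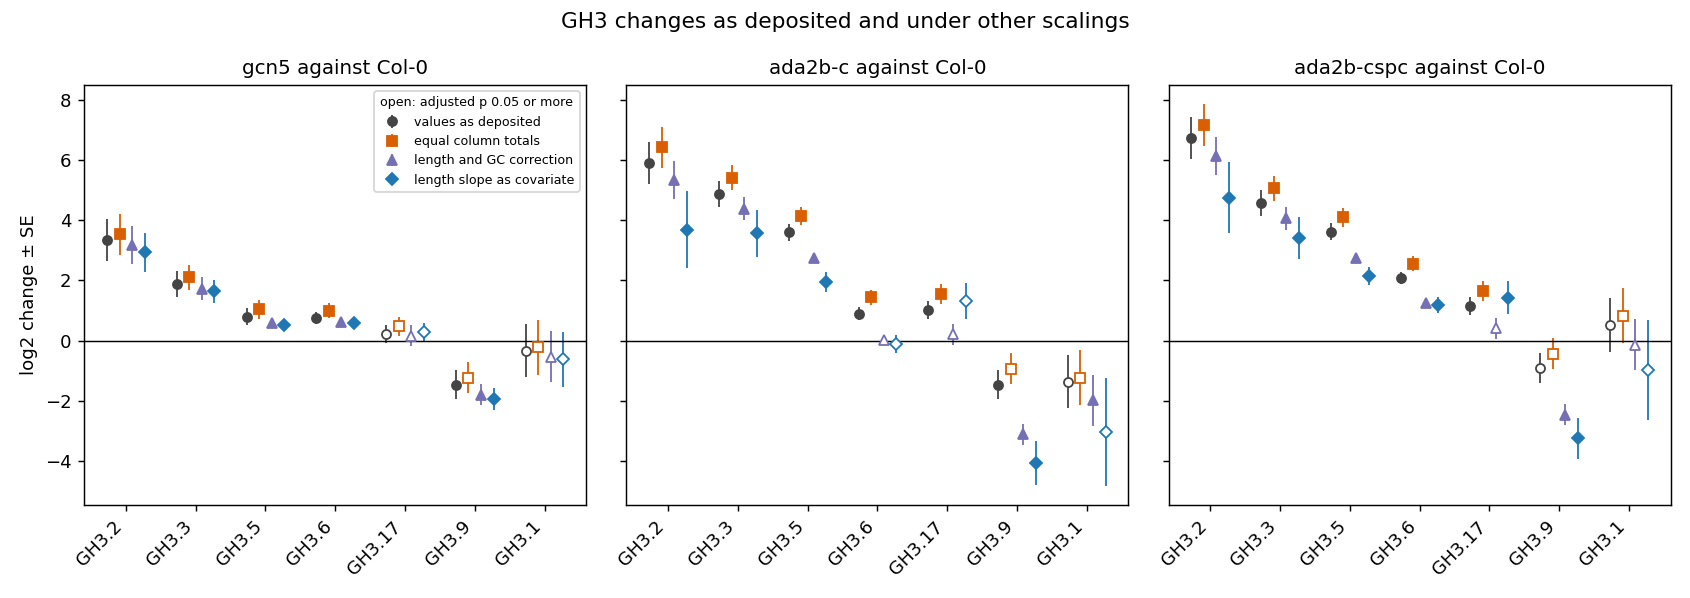
Log2 change ± SE (vertical axis) of the 7 tested GH3 genes (horizontal axis) in gcn5, ada2b-c and ada2b-cspc against Col-0, as deposited, with equal column totals, with the length correction and with the slope covariate. GH3.2, GH3.3 and GH3.5 lie above 0 in each, whereas GH3.6 in ada2b-c is at 0.90 as deposited, at 0.02 with the length correction and at -0.10 with the slope covariate.

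The gcn5 and ada2b-c mutants were also compared with each other. As deposited, 4 of the 7 genes were lower in gcn5 than in ada2b-c and none was higher, where 58.3% of all genes passed in either direction. The count lies near this share. GH3.2 stood at 85.4 ± 37.3 in gcn5 and 478 ± 27.0 in ada2b-c, a difference of -2.58 ± 0.70 (adjusted p = 0.00383) that was -0.75 with the covariate and did not pass. GH3.3 differed by -3.0 ± 0.43 (adjusted p = 8.34e-06) and GH3.5 by -2.80 ± 0.28 (adjusted p = 1.12e-07). GH3.17 differed by -0.79 ± 0.30 (adjusted p = 0.0295), lost without ada2b-c replicate 2 (-0.72, adjusted p = 0.0875), ada2b-c replicate 3 (-0.70, adjusted p = 0.0981) or gcn5 replicate 2 (-0.64, adjusted p = 0.119), after the length correction (-0.04) and with the covariate (-1.04, adjusted p = 0.137). GH3.6 stood at 857 ± 227 in gcn5 and 926 ± 45.9 in ada2b-c, a difference of -0.15 ± 0.21 that did not pass as deposited and was 0.61 after the length correction (adjusted p = 0.00214).

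With a second mutation added to ada2b-c, GH3.6 was the only member whose change passed as deposited. In ada2b-cada2a 1 of 7 genes was higher than in ada2b-c, where 15.7% of all genes passed, and in ada2b-cspc 1 of 7, where 9.18% passed. Both counts lie near these shares. With the covariate GH3.9 also passed as a rise in ada2b-cada2a over ada2b-c (1.01, adjusted p = 0.0429). GH3.6 stood at 1762 ± 170 in ada2b-cada2a and 926 ± 45.9 in ada2b-c, a rise of 0.92 ± 0.21 (adjusted p = 0.00478). In ada2b-cspc it stood at 2102 ± 257, a rise of 1.18 ± 0.21 over ada2b-c (adjusted p = 0.00101). Each rise passed with any library left out, at 0.88 to 1.01 in ada2b-cada2a and 1.11 to 1.28 in ada2b-cspc. GH3.2 stood at 840 ± 85.8 in ada2b-cspc and 478 ± 27.0 in ada2b-c, with no overlap, and its difference of 0.81 ± 0.70 passed only in a fit of these groups only (adjusted p = 0.00483). GH3.5 stood at 2320 ± 474 in ada2b-cada2a and 3389 ± 121 in ada2b-c, also with no overlap, and its difference of -0.57 ± 0.28 (adjusted p = 0.187) passed in a fit of these groups only (adjusted p = 0.0373) and after the length correction (-0.50, adjusted p = 0.028).

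The interaction, which is the double mutant's change less both single mutants' changes, shows where the combination departed from additivity on the log2 scale. For ada2b-c and ada2a 2 of 7 genes passed, where 13.3% of all genes did, and for ada2b-c and spc 1 of 7, where 10.7% did. GH3.6 had an interaction of 1.45 ± 0.30 with spc (adjusted p = 0.00502). Its changes against Col-0 were 0.90 in ada2b-c, -0.27 in spc and 2.08 in ada2b-cspc. The interaction of GH3.6 passed with any library left out (1.35 to 1.55), and was 0.79 after the length correction and 1.04 with the covariate, where it also passed. The median interaction of all genes with spc was 0.12 as deposited and 0.33 with equal column totals.

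With ada2a, GH3.17 had an interaction of 1.44 ± 0.43 (adjusted p = 0.0312): its change was 1.02 in ada2b-c, -1.57 in ada2a and 0.90 in ada2b-cada2a. GH3.5 had one of -1.29 ± 0.39 (adjusted p = 0.0347), from changes of 3.6 in ada2b-c, 0.73 in ada2a and 3.03 in ada2b-cada2a. Neither was secure. After the length correction the interaction of GH3.17 was 0.93 and did not pass (adjusted p = 0.183), while that of GH3.5 was -1.61 and passed (adjusted p = 7.79e-05). The interaction of GH3.5 did not pass with equal column totals (-1.03, adjusted p = 0.122) or with no filter (adjusted p = 0.0696). GH3.17 kept its call in 5 of the 12 fits that left out a library, with the lowest value 1.18 without ada2a replicate 2 (adjusted p = 0.0765), and GH3.5 in 4 of 12, with the weakest value -1.06, also without ada2a replicate 2 (adjusted p = 0.0913).

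Genes for other steps of auxin inactivation rose in some cases and fell in others. Of 10 tested genes for oxidation, methylation, glucosylation and conjugate release, 3 rose and 2 fell in gcn5, 5 rose and 3 fell in ada2b-c, 3 rose and 4 fell in ada2b-cada2a and 3 rose and 3 fell in ada2b-cspc. In the double mutants these counts lie near the shares of all genes, which were 30.4% higher and 32.1% lower in ada2b-cada2a and 31.4% and 33.3% in ada2b-cspc. The shares were 15.6% higher and 18.7% lower in gcn5, and 32.4% and 33.6% in ada2b-c. IAR3 (AT1G51760), a hydrolase that frees auxin from its alanine conjugate, rose by 1.51 ± 0.18 in gcn5, 1.98 ± 0.18 in ada2b-c, 1.95 ± 0.18 in ada2b-cspc and 2.07 ± 0.18 in ada2b-cada2a. IAMT1 (AT5G55250), which methylates auxin, stood at 9.73 in gcn5, 5.05 in ada2b-c, 7.95 in ada2b-cada2a, 9.05 in ada2b-cspc and 263 in Col-0, a fall that passed in all 4, with changes from -5.48 to -4.83. ILL5 (AT1G51780), of the hydrolase family, stood at 2.89 in gcn5, was listed at 0 in the 3 ada2b-c genotypes and stood at 32.9 in Col-0. The median change of this list was 0.23 in gcn5, 0.53 in ada2b-c, 0.41 in ada2b-cspc and 0.18 in ada2b-cada2a, against -0.06 to 0.00 over all genes. In the same order it was 0.33, 1.22, 0.70 and 0.49 after the length correction. With the covariate it was 0.01, 0.19, -0.48 and -0.67, so its sign turned in both double mutants. The list holds genes of opposite effect on free auxin.

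The Aux/IAA genes, repressors that auxin normally induces together with GH3 genes, ran the other way. Of 12 tested, 11 fell in gcn5 (median -1.73), and all 12 fell in ada2b-c (median -4.10), ada2b-cada2a (-2.19) and ada2b-cspc (-2.22). IAA6 changed by -3.70 ± 0.60 in gcn5, -7.23 ± 0.60 in ada2b-c, -4.48 ± 0.60 in ada2b-cspc and -4.70 ± 0.60 in ada2b-cada2a. IAA29 changed by -3.66 in gcn5, -7.16 in ada2b-c, -3.52 in ada2b-cspc and -3.75 in ada2b-cada2a. IAA17 changed by -5.03 in ada2b-c, -3.56 in ada2b-cspc and -3.40 in ada2b-cada2a, and IAA1 by -2.60 in gcn5. After the length correction 11 of 12 still fell in ada2b-c (median -3.11), but in ada2b-cada2a 9 fell and 1 rose, and in ada2b-cspc also 9 and 1, the riser being IAA4 in each (0.50 and 0.31, chosen for naming after its values were seen). In ada2a and in spc 5 Aux/IAA genes rose and none fell as deposited, a count that neither length adjustment nor equal column totals kept. The length correction gave 2 higher and 2 lower in ada2a, and 2 higher and 4 lower in spc. With equal column totals 1 rose and 2 fell in ada2a, and 2 rose and 1 fell in spc, and with the covariate no gene passed in either.

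Auxin receptor genes changed little. Of 6, 2 rose in gcn5, TIR1 by 0.56 ± 0.14 and AFB2 by 0.72 ± 0.15, and in ada2b-c TIR1 rose by 0.77 ± 0.14 and AFB2 fell by 0.38. TIR1 and AFB3 rose in ada2b-cada2a (0.93 and 0.67) and in ada2b-cspc (0.92 and 0.64). These directions depended on scaling: in ada2b-c all 6 receptor genes fell after the length correction, and 3 rose and none fell with equal column totals. Auxin response factor genes rose in 4 of 6 cases in ada2b-c, led by ARF7 (3.94 ± 0.46), ARF5 (2.69 ± 0.45) and ARF19 (2.59 ± 0.43), and ARF8 fell by 0.73. After the length correction ARF7 stood at 1.17 in ada2b-c and passed, while ARF5 (0.40) and ARF19 (-0.14) did not, and ARF8 stood at -2.88. In ada2b-cada2a ARF7, ARF5 and ARF19 stood at 3.44, 2.95 and 1.64 as deposited, and in ada2b-cspc at 3.67, 3.39 and 2.18. ARF7 and ARF5 still passed in both double mutants after the length correction, at smaller changes of 1.0 and 0.94 in ada2b-cada2a and 1.05 and 1.26 in ada2b-cspc, while ARF19 stood at -0.74 and -0.34 and did not pass. With the covariate none of the 3 passed in ada2b-c or the double mutants. The list as a whole had 3 higher and 1 lower in each double mutant as deposited, 2 higher and 3 lower after the length correction, and none higher and 2 lower with the covariate. In gcn5 ARF8 alone passed (-0.58).

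Other GH3 genes, which act on jasmonate, salicylate-related or other acids, passed in both directions in every mutant as deposited. Of 10 tested out of 12, 2 rose and 2 fell in gcn5, 3 rose and 5 fell in ada2b-c, 1 rose and 2 fell in ada2a, 2 rose and 2 fell in spc, 2 rose and 3 fell in ada2b-cada2a, and 2 rose and 5 fell in ada2b-cspc. After the length correction 3 rose and 6 fell in both ada2b-c and ada2b-cspc. The corrected medians there were -1.61 and -1.42, against 0.18 and 0.11 over all genes. In ada2b-cada2a the corrected median was -0.48, in gcn5 -0.41, in spc -0.07 and in ada2a 0.16. With equal column totals the medians in ada2b-c and ada2b-cspc were -0.27 and -0.10. PBS3 (AT5G13320), whose enzyme makes isochorismate-glutamate in salicylic acid synthesis, rose by 2.11 ± 0.25 in gcn5, 3.03 ± 0.25 in ada2b-c, 3.53 ± 0.25 in ada2b-cspc and 3.28 ± 0.25 in ada2b-cada2a, with a signal of 2310 ± 113 in ada2b-cspc against 201 ± 37.1 in Col-0. PBS3 passed under both length adjustments in all 4. AT5G13370 rose by 1.99 in ada2b-c, 1.72 in ada2b-cspc and 1.53 in ada2b-cada2a, which the covariate ended.

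GH3.10 (AT4G03400) changed by -1.08 in ada2b-c, -1.38 in ada2a, -1.20 in spc and -0.68 in ada2b-cspc, of which those in ada2b-c and ada2b-cspc did not pass with equal column totals (-0.54 and -0.19), and that in spc did not pass after the length correction (-0.29). AT5G13360 rose by 0.85 in ada2b-c, which stood at -0.08 after the length correction, and changed by -1.0 in gcn5, -1.13 in ada2a and -1.07 in spc. Of these falls, that in gcn5 did not pass with equal column totals (-0.76), and those in ada2a (-0.65) and spc (-0.39) did not pass after the length correction. The remaining calls concerned low genes. AT5G13380 stood at 24.5 in gcn5, was listed at 0 in ada2b-c and ada2b-cspc, and stood at 9.76 in Col-0. AT1G48670 was listed at 0 in gcn5 and in the 3 ada2b-c genotypes and stood at 16.1 in spc, against 5.20 in Col-0. AT1G48660 was listed at 0 in ada2b-c and ada2b-cspc and stood at 1.68 in ada2b-cada2a, against 8.47 in Col-0. AT5G51470 stood between 1.06 and 1.13 in the 3 ada2b-c genotypes, against 11 in Col-0. AT1G48690 stood at 22.6 in ada2a and 14.0 in spc, and Col-0 was listed at 0 for it.

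Tissue markers moved between the same genotypes. Of 4 leaf markers, 4 fell in gcn5, 3 in ada2b-c, none in ada2a, 3 in spc and 4 in each double mutant. Their sum lay between 163819 and 191609 in ada2b-c, 288780 and 400486 in gcn5, and 803227 and 1045206 in Col-0. Of 6 flower markers 3 fell in gcn5, all 6 fell in the 3 ada2b-c genotypes, and 2 rose in ada2a and 3 in spc. The sum of the flower markers was 376 to 512 in gcn5, 57.4 to 73.8 in ada2b-c, where AG was at 0, 195 to 237 in ada2b-cada2a, 131 to 163 in ada2b-cspc and 826 to 1075 in Col-0. All 4 anther markers fell in the 3 ada2b-c genotypes. Each was at 0 in ada2b-c, and they summed to between 58.4 and 77.1 in ada2b-cada2a, between 0 and 2.51 in ada2b-cspc, with AT5G07230 and EXL4 at 0, and between 607 and 718 in Col-0. In the other mutants they were higher: 2 of 4 rose in gcn5, with sums from 941 to 1320, 3 of 4 in ada2a (808 to 1835) and 3 of 4 in spc (995 to 1872). GH3.2 and GH3.3 were higher than in Col-0 in both gcn5 and ada2b-c. Anther markers differed from Col-0 in opposite directions in these mutants, while the leaf and flower markers that passed were lower in both. Of 3 tested root markers 1 rose in gcn5, ada2b-cada2a and ada2b-cspc, and EXPA7 was at 0 in every mutant. The part of tissue make-up in the GH3 changes was not tested.

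The GH3 genes were also compared among themselves by their pattern over the 7 genotypes. The likeness of 2 genes was measured as the root mean square difference of their centred log2 genotype means over 7 genotypes, where a smaller value is more alike. The smallest differences were those of GH3.6 with GH3.17 (0.592), GH3.2 with GH3.3 (0.627), GH3.1 with GH3.9 (0.709) and GH3.3 with GH3.5 (0.781). The measure is not scaled for how strongly a gene varies, so genes that vary little lie close together whatever their pattern. The root mean square of the centred means was 2.55 for GH3.2 and 2.14 for GH3.3, but 0.546 for GH3.9. GH3.9 thus lay nearer to no change at all than to GH3.1, which was close to 0 signal. GH3.5 and GH3.6, which share 84.1% of coding bases, differed by 0.88.

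Genes outside the family came closer. The nearest to GH3.5 were POK2 (AT3G19050, 0.109) and NRPA1 (AT3G57660, 0.129), and to GH3.3 AT1G17500 (0.132) and AT3G14470 (0.147). The nearest to GH3.2 were RLP20 (AT2G25440, 0.324) and AT2G29060 (0.344), and to GH3.6 AT1G09863 (0.138) and AT1G79640 (0.149). For GH3.17 they were AT5G12920 (0.118) and SPHK1 (AT4G21540, 0.139), for GH3.9 GGPS3 (AT3G14550, 0.0701) and AT2G22900 (0.126), and for GH3.1 AT2G40390 (0.317) and AT1G74010 (0.32). With 23290 genes to choose from and 7 genotype means, near matches are a description only.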

How the data were processed

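RNA sequencing libraries of 21 samples were analysed, 3 for each of 7 genotypes. The authors deposited 1 table of signal per gene and library, with values that are not whole numbers and totals that differ between libraries, and no source used here says how they were adjusted. Per the labels' protocols, total RNA was extracted with TRIzol and sequenced as 150-bp paired reads. Per the submitters' processing notes, bcl2fastq, HISAT2, edgeR and TAIR10 were used. No version, counting program, annotation or strandedness is given in the sources used here.

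The fit was made in R 4.3.3 with limma 3.58.1 on log2(value + 1), with a mean for each genotype, a variance trend and Benjamini and Hochberg adjustment over 23290 genes with a mean of at least 1, in 11 comparisons. The step was tested on simulated data. Loci, transcript lengths, GC content and sequences came from TAIR10.1 (RefSeq), and coding sequences were aligned with Biopython 1.88. The length correction subtracts a spline with 5 degrees of freedom over length and GC content, fitted to 18559 genes. Python 3.11.15 and matplotlib 3.10.9 drew the figures.

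The members, gene lists, comparisons and alternatives were chosen with earlier results of these data known. The rule for named genes took all 8 members, the 2 genes of nearest pattern, every called gene of the other GH3 list, and up to 3 called genes of largest change per other list in gcn5, ada2b-c and the double mutants. Same-numbered libraries of gcn5 and Col-0 (correlations of deviations 0.227 to 0.657) and of ada2a and Col-0 (0.158 to 0.470) deviated together. The labels do not name them as pairs, and the fit behind the reported changes held no pairing. Replicate number entered only as a block among the alternatives.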

Additional observations from a re-analysis of the deposited data

Results flagged for a closer look

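In 3 cases the change brought by 1 mutation differed with the presence of ada2b-c, by the interaction term of the limma fit. GH3.6 showed an interaction of ada2b-c and spc of 1.45 ± 0.30 (adjusted p = 0.00502). GH3.17 showed 1.44 ± 0.43 for ada2b-c and ada2a (adjusted p = 0.0312), and GH3.5 showed -1.29 ± 0.39 for the same pair (adjusted p = 0.0347). After the length correction GH3.17 stood at 0.93 and did not pass, and GH3.5 stood at -1.61 and passed, while with equal column totals GH3.5 stood at -1.03 and did not pass. Of these, GH3.6 passed in every fit that left out a library.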

How the results depend on the processing

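Over 7 genes and 11 comparisons, replicate number as a block changed no call (5 genes in gcn5 and 2 in ada2a, also with the block only within Col-0, gcn5 and ada2a), nor did a mean of at least 30. Only the larger shifts in the count of genes that passed are listed below. Smaller ones include ada2a, where GH3.6 also passed after the length correction (0.74) and with the covariate (0.63). In ada2b-c GH3.6 and GH3.17 did not pass with the covariate, nor GH3.9 with equal column totals. The count in gcn5 was 3 with no filter and 1 in a fit of the groups alone. In ada2a it was 1 with no filter, with equal column totals, in a fit of the groups alone, and without replicate 3 of both Col-0 and gcn5, and 1 to 2 with a library left out. In spc it was 0 in a fit of the groups alone and without both replicates 3, 3 after the length correction, and 0 to 2 with a library left out. In ada2b-cada2a against ada2b-c it was 2 in a fit of the groups alone, after the correction and with the covariate, and in ada2b-cspc against ada2b-c 2 in a fit of the groups alone. The interaction with ada2a gave 1 with no filter, with equal column totals and after the correction, and 0 to 2 with a library left out, and that with spc 2 after the correction and with the covariate. Changes that turned their direction and passed in at least 1 of the fits set against each other were GH3.6 in ada2b-c with the covariate (-0.10), GH3.6 in spc (0.44) and in gcn5 against ada2b-c (0.61) after the correction, and GH3.9 in gcn5 against ada2b-c after the correction (1.30) and with the covariate (2.16). In 65 further pairs of a change and an alternative, from 24 changes, the direction turned without a pass in either fit, among them GH3.2 in ada2a without Col-0 replicate 3 (-0.53) and GH3.6 in gcn5 against ada2b-c with the covariate (0.68). The covariate and the correction are built to take out the length trend, which is tied to genotype, so they may also take out a change of the genotype itself. For the others the cause was not tested. Equal column totals moved the all-gene median against Col-0 to 0.42 for ada2b-c, 0.35 for ada2b-cada2a, 0.39 for ada2b-cspc, 0.22 for gcn5, -0.33 for spc and -0.37 for ada2a. Leaving out both replicates 3, and the block with the correction, were chosen after seeing the data. Depth is unknown, so changes of GH3.1 and other genes near 0 could not be weighed against counting error.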
